A study of Homo sapiens with 9 samples.

Results

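Among the sites where EGR1 signal rose above the level of proliferating cells after induction of the BRAF V600E oncoprotein, those without a peak in the matching list from clobetasol-treated cells are described here. They were selected on the deposited peak lists themselves: a peak of the induced list on chromosomes 1 to 22 was a member when no peak of the clobetasol list overlapped it by 1 bp or more. Of 15750 induced autosomal peaks, 5652 met this rule, which is 35.9% (95% Wilson interval 35.1 to 36.6%), and 10098 overlapped a clobetasol peak. The induced list is the longer, with 16285 peaks against 12340 in the clobetasol list, and when only as many of its strongest peaks were used as the clobetasol list holds, 2796 (23.4%) had no clobetasol peak. A further 535 induced peaks lay off the autosomes, 204 of them without a clobetasol peak, and were not members. Because the rule used both lists, every fold, q-value and pileup below belongs to the contrasts that chose the sites and is given as a description without a test.

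The cells were the BJ fibroblast line carrying hTERT and BRAF V600E, an immortalised human line in which the oncoprotein is switched on by doxycycline. The 9 chromatin immunoprecipitation libraries made with an anti-EGR1 antibody formed 3 groups of 3, all at 24 h. These were proliferating cells with ethanol in place of doxycycline, cells with doxycycline at 1000 ng/mL, and cells with doxycycline at 1000 ng/mL plus clobetasol at 2 nM. DMSO is named in the source labels of the groups without clobetasol and in the titles of all groups, so whether the clobetasol cells received it as well was not settled. The peaks were called on pools of the libraries of a group, against the pooled EGR1 libraries of proliferating cells as control. No value per replicate was used, and no replicate error can be given for any value below. In the labels, proliferating replicates 2 and 3 share a sample name within their library names, which leaves the number of distinct samples behind the control unsettled. Separate cultures for the libraries of a group are not stated either.

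EGR1 is a zinc finger transcription factor of the immediate early class: its gene is switched on within a short time of growth factor or MAP kinase signalling, and the protein binds GC-rich elements, many of them near gene starts. Mutant BRAF drives the MAP kinase cascade continuously, and in normal fibroblasts sustained RAF signalling leads to oncogene-induced senescence, a lasting arrest of the cell cycle. Clobetasol is a synthetic glucocorticoid that activates the glucocorticoid receptor, itself a DNA-binding transcription factor. A site in these lists is a place where EGR1 signal exceeded that of proliferating cells, so a site bound equally in proliferating and induced cells does not appear.

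By −log10 q the members were mostly the weaker sites of the induced list. Their median fold over the local proliferating level was 3.33 (quartiles 2.96 and 3.75), against 3.92 (3.31 and 4.72) at the induced peaks with a clobetasol peak. Folds and q-values are the authors' own for each peak. The median −log10 q was 8.43 in members and 22.5 in the others. Only 2 of the 1000 induced autosomal peaks of highest −log10 q were members, and the first of them stood at rank 160. At the other end, 1275 of the 1575 peaks in the lowest class of 10 by −log10 q were members, which is 81.0%. The share fell from class to class to 0.571% in the highest, where 9 of 1575 were members. The distributions nevertheless overlapped widely. Members reached a −log10 q of 10 or more at 2088 sites (36.9%), of 20 or more at 324 sites (5.73%) and of 30 or more at 65 sites, while the weakest peak with a clobetasol peak had a −log10 q of 5.01. A fold over 5 was listed for 143 members (2.53%) and for 1914 of the others (19.0%).

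In fragments, the summit of a member held a median of 44 in the induced pool (quartiles 35 and 57), against 86 at the other peaks. These whole pileups were worked out from each row's fold and −log10 p, which fix the pileup and the control level together, and were whole within 0.05 fragments at 99.8% of members. Above the control level, the median member had 31.2 fragments and the median peak of the rest 64.6. The control level of members was also lower, with a median of 1.87 times the lowest of the list against 3.23 times at the other peaks. A level over 5 times the lowest was found at 239 members (4.23%) and at 2524 of the others. The lowest control level of the list, taken here as the genome-wide background of the proliferating pool, was found at 182 members (3.22%) and at 58 of the others (0.574%). Members were narrower, with a median of 373 bp (quartiles 288 and 559) against 453 bp, and together covered 2.63 Mb, which is 31.3% of the sequence under induced autosomal peaks.

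**Figure D1:**
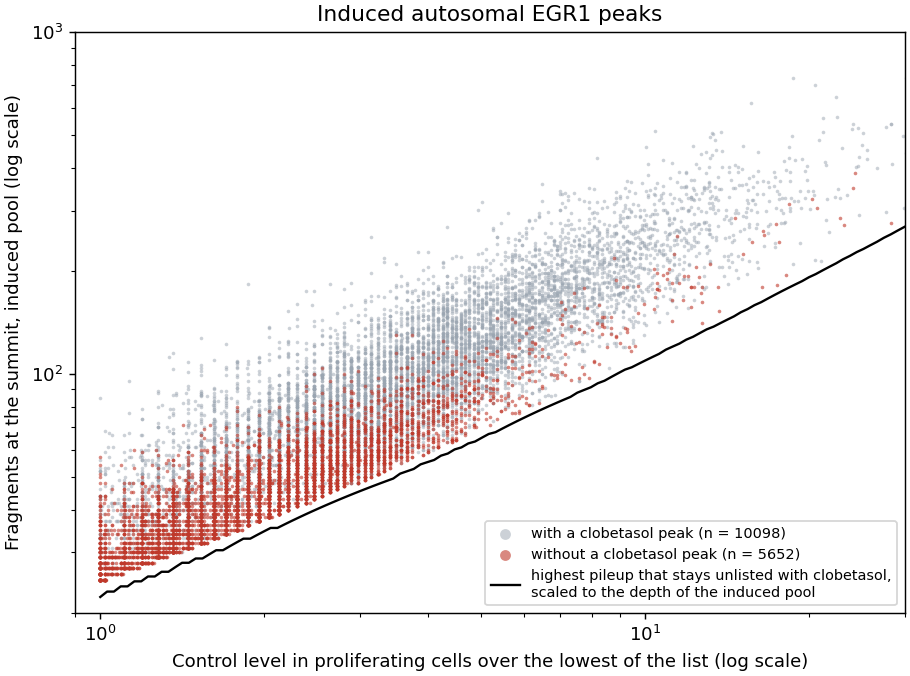
Induced autosomal peaks by control level in proliferating cells (x axis, multiples of the lowest level of the list, log scale) and by fragments at the summit in the induced pool (y axis, log scale), with 5652 members in red, the other 10098 in grey, and a black line for the highest clobetasol pileup that would stay unlisted, divided by the depth ratio of the pools. Axis limits leave out sites beyond 30 times the lowest control level or 1000 fragments; the members lie along the lower edge of the cloud, all above the line.

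**Figure D2:**
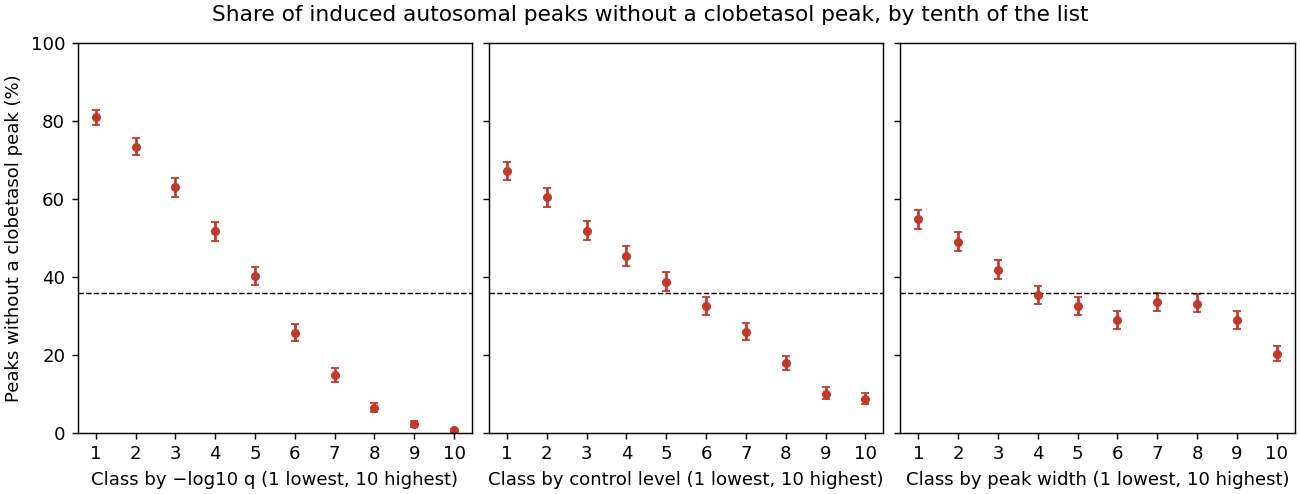
Percentage of induced autosomal peaks that had no clobetasol peak (y axis) in 10 classes of about equal size by −log10 q, by control level and by peak width (x axes), with 95% Wilson intervals and a dashed line at 35.9%. By −log10 q the share falls from 81.0% to 0.571%, and by control level from 67.3% to 8.63%, while by width it falls from 54.8% to 28.9% over the first 6 classes and ends at 20.2%.

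To set control level, fold and width apart from −log10 q, the peaks were cut into 20 narrow classes by −log10 q, and each of these into 4 classes by the other measure. At similar −log10 q, a low control level and a high fold went with a larger share of members over most of the range. From 9.66 to 19.0, the share was 46.7% (43.9 to 49.6%) in the lowest of the 4 control classes and 31.9% (29.3 to 34.6%) in the highest, and it was 32.1% in the lowest fold class and 46.3% in the highest. At a given −log10 q, pileup and control level are tied, so control level and fold give nearly the same ordering, reversed, and count as 1 result. Over most of the range, members were thus the weaker sites by −log10 q but not by fold at a given −log10 q. The lowest control class had the larger share in all 15 of the lower −log10 q classes, and the highest control class in the 5 classes above 28.4, which hold few members. For fold, the highest class had the larger share in 14 of those 15 classes, and the lowest class in all 5 above 28.4. For width, the direction changed with −log10 q. From 5.00 to 9.65 the share rose from 68.8% (66.1 to 71.4%) in the narrowest class to 75.3% (72.8 to 77.7%) in the widest. Width showed little pattern from 9.66 to 19.0, with shares between 37.1 and 42.7%. Above 19.0, the narrowest class had 9.39% members (8.05 to 10.9%) against 4.44 to 5.39% in the 3 wider classes, at nearly equal median −log10 q, 32.9 to 33.1. Control levels above 5 times the lowest were found at 85 (26.2%) of the 324 members with a −log10 q of 20 or more, against 38.3% of the 5658 other peaks of that strength. Why the narrow strong peaks were more often members was not tested.

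A member has no listed clobetasol pileup, but the clobetasol list bounds it under the assumptions given below. The weakest row of that list had a −log10 p of 8.12, so at each member the highest whole pileup that would have stayed under that value was computed from the Poisson tail at the member's control level, scaled by the depth ratio of the clobetasol to the induced pool, 1.21. Dividing this pileup by the depth ratio and by the induced pileup gave an upper limit for the depth-scaled ratio of clobetasol to induced signal. The median limit over members was 0.779 (quartiles 0.688 and 0.854, range 0.386 to 0.981). It was under 0.7 at 1563 members (27.7%), under 0.5 at 87 (1.54%), and 0.9 or higher at 559 (9.89%). All 5652 limits were under 1, which the construction gives, since the clobetasol pool was the deeper and an unchanged pileup would have passed its threshold. Counting error is large at these depths: the exact 95% interval of the ratio, taken at the limit, lay wholly under 1 at 1157 members (20.5%). At the remaining members the limit could not be told from an unchanged pileup by counting alone. The induced pileup in this interval is the one that selected the site. The interval is therefore a description and no test of a change, with no correction for the number of members. The limit also assumes that no call above the threshold was left out of the deposited list. It takes account of the −log10 p at 1 position only. If the caller required a minimum length, a shorter clobetasol stretch above the threshold would also have stayed unlisted. The narrowest induced autosomal peak was 225 bp wide. The same limit was also worked out at the 10098 peaks with a clobetasol peak. The clobetasol summit pileup was above it at 9871 of them (97.8%). Every listed row reaches the bound at its own summit, so this share is largely given by the construction. It is no check of the limit at members. At the rest a listed pileup lay at or under the limit, so the limit is not exact. For fragments above the control level, the median limit at members was 0.694.

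The 10098 peaks with a clobetasol peak had a measured median ratio of 0.797 on the same scale, and 87.9% of them were under 1, so ratios under 1 were also found at sites that kept a peak. This ratio divides the summit pileup of the overlapping clobetasol peak, the highest where several overlapped, by the induced summit pileup. The 2 summits need not coincide, whereas the limit at members refers to the induced summit. All sites were taken from the induced list, so the induced pileup in the ratio was selected to be high, which favours ratios under 1. By how much was not tested, so the medians given here do not by themselves measure a loss of signal. If every member is put at a pileup of 0, the median ratio over all 15750 sites is 0.694, and if every member is put at its limit it is 0.791. With the ratio taken between summits at the other sites, the median over the induced autosomal sites therefore lies between these values whatever the members' pileups under their limits. In the upper 3 of 5 classes by −log10 q, where members made up 33.0, 10.5 and 1.37% of the sites, the bounds nearly met, at 0.730 and 0.733, at 0.743 in both cases, and at 0.738 in both cases. In the lower 2 classes, which hold 2432 and 1809 of the members, the bounds say little: they were 0 and 0.878 in the lowest, and 0 and 0.780 in the next. In the lowest class, with 77.2% members, the measured median of the peaks that kept a clobetasol peak was 0.998. Peaks of that class that stayed in the clobetasol list had to be high there, so their ratio alone describes a selected subset.

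**Figure D3:**
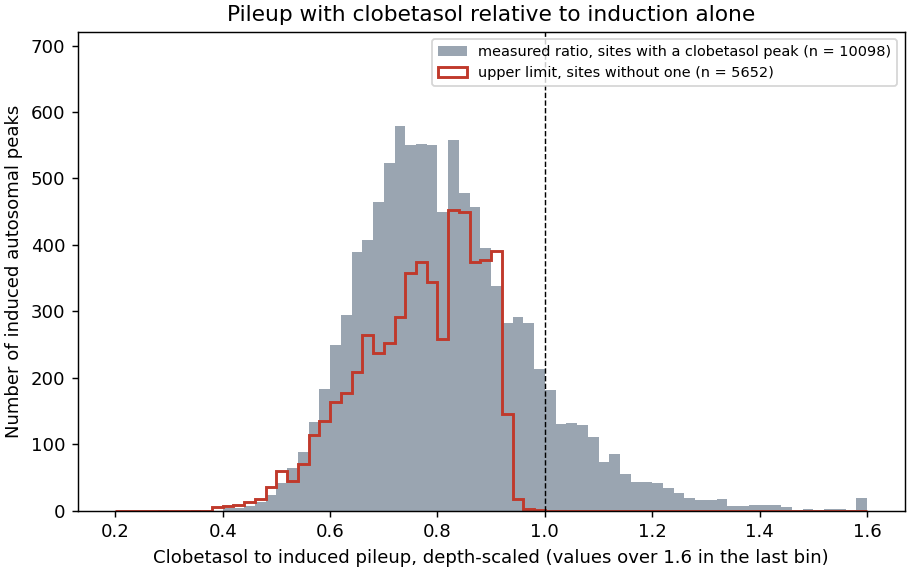
Number of induced autosomal peaks (y axis) by depth-scaled ratio of clobetasol to induced pileup (x axis), with the measured ratio at 10098 peaks that had a clobetasol peak in grey and the upper limit at 5652 peaks without one as a red outline. The limits centre on 0.779 and all lie left of the dashed line at 1, and the measured ratios centre on 0.797 with a tail above 1.

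The member of highest −log10 q with a control level up to 5 times the lowest lay on chromosome 17, 27895430 to 27895850 (hg19). Its summit held 130 induced fragments over a control level of 22.6, a fold of 5.55 with a −log10 q of 49.96. That control level corresponds to 41.0 fragments in the proliferating pool, which the caller scaled by 0.552 to the depth of the induced pool before taking the fold. Under the assumptions of the limit, at most 61 clobetasol fragments could have stayed unlisted there. This put the ratio at 0.386 or lower, with an exact interval at the limit of 0.280 to 0.527. The nearest clobetasol peak was 1153 bp away. A peak on chromosome 20, 48598945 to 48599855, held as many induced fragments, 130, at a fold of 5.18 and a limit of 0.405. On chromosome 4, 88744185 to 88744506, 104 fragments gave a fold of 5.98 and a limit of 0.388, and on chromosome 14, 101543752 to 101544146, 100 fragments gave a fold of 5.94 and a limit of 0.395. The 10 members chosen in this way had 92 to 135 fragments, folds of 4.27 to 5.98 and limits of 0.386 to 0.463, and at all 10 the interval at the limit lay under 1. They were picked for high −log10 q, so this is no test of a change.

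The highest folds came from sites whose control level was at or near the lowest of the list. The highest of any member was 7.75, on chromosome 2, 26892975 to 26893598, with 57 induced fragments over the lowest control level of the list and a limit of 0.390. Next came 7.35 on chromosome 3, 140795536 to 140796434, with 54 fragments, and 7.20 on chromosome 6, 37583129 to 37583769, with 60 fragments. The 10 members of highest fold held only 48 to 71 fragments, at control levels of 1.00 to 1.42 times the lowest, and had limits of 0.390 to 0.463. No member was in both lists of 10.

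Ranking by −log10 q alone gave another kind of site. Of the 10 members of highest −log10 q, 9 exceeded the lowest control level by more than 5 times. The first, on chromosome 1, 121484319 to 121485529, had 42535 induced fragments at a fold of 1.12, a control level 5863 times the lowest, and a limit of 0.917. On chromosome 18, 18518121 to 18518520, 1163 fragments gave a fold of 1.62, and on chromosome 21 the pair at 9825573 to 9826404 and 9826779 to 9827443 had folds of 2.07 and 2.29. At a given fold the Poisson −log10 q grows with the pileup. Whether the signal at such high control levels came from EGR1 binding was not tested. In all, 41 members had a fold under 2. Not all high-control members were of low fold: chromosome 15, 41785839 to 41786157, had 219 fragments over a scaled control level of 56.8, a fold of 3.81 and a limit of 0.451.

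At the threshold of the list, the 5 members of lowest −log10 q, 5.00 to 5.02, had 27 to 42 fragments and folds of 2.57 to 3.24. Their limits were 0.911 to 0.941, and at none of the 5 did the interval at the limit lie under 1. For such sites the absence of a clobetasol peak bounds the ratio only just under 1.

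Few sites lay close to the boundary of the rule. The members nearest to a clobetasol peak were 138, 162, 175, 181 and 197 bp away, and among the non-members the smallest overlaps were 140, 162, 163, 166 and 174 bp, so no peak lay within 100 bp of the boundary on either side. Many overlaps were partial, though: 1166 of the 10098 non-members (11.5%) had under 50% of their width covered by a clobetasol peak. The nearest member, on chromosome 21, 38739514 to 38740528, had 34 fragments, a fold of 3.37 and a limit of 0.823. The non-member with the smallest overlap, on chromosome 12, 56132157 to 56132412, had 31 induced and 33 clobetasol fragments, a fold of 3.48 and a ratio of 0.876. Within 500 bp of a clobetasol peak there were 330 members (5.84%). For 311 of them (94.2%) that clobetasol peak overlapped a different induced peak, so the member was a neighbour of a site that kept its peak. The median member was 32924 bp from the nearest clobetasol peak, and 1325 (23.4%) were over 100000 bp away.

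Members were spread over the genome in proportion to the induced peaks. By chromosome their share ran from 32.0% on chromosome 12 (255 of 796) to 40.1% on chromosome 20 (191 of 476), and the 95% Wilson interval held the autosomal share on 21 of 22 chromosomes. The median fold of members ran from 3.23 to 3.42 over chromosomes and the median limit from 0.770 to 0.799. Over all −log10 q, spacing made little difference: another induced peak lay within 1000 bp of 14.4% of members and of 14.6% of the others. The median distance to the nearest other induced peak was 21790 bp for members and 22044 bp for the others. The share was 47.0% (35.4 to 58.8%) for the 66 peaks with no other induced peak within 1000000 bp, and 32.6 to 38.3% in the 8 nearer classes. At −log10 q 5 to 10, the share was 76.4% (73.0 to 79.5%) with another induced peak within 1000 bp. It was 69.1% (66.1 to 72.1%) with none within 100000 bp. The same shares were 39.1 and 34.9% from 10 to 20, and 5.25 and 5.48% from 20 up. After a member, the next induced peak along the chromosome was a member in 37.1% of cases, and after another peak in 35.2%.

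**Figure D4:**
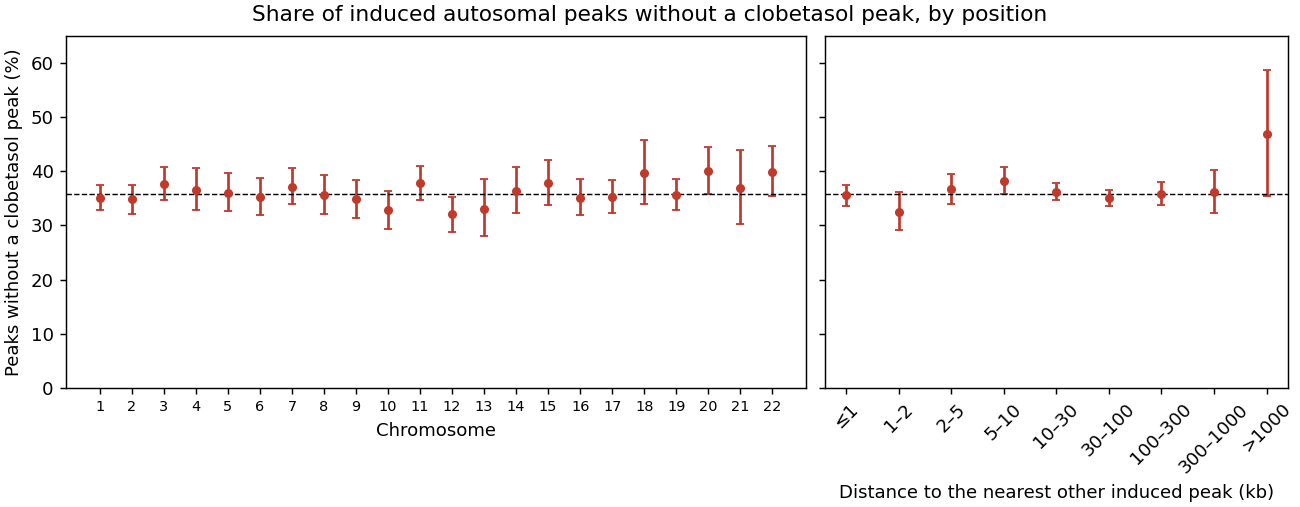
Percentage of induced autosomal peaks without a clobetasol peak (y axes) by chromosome and by distance to the nearest other induced peak (x axes), with 95% Wilson intervals and a dashed line at 35.9%. The shares stay between 32.0 and 40.1% over chromosomes and between 32.6 and 38.3% over distances up to 1000000 bp.

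In windows of 1 Mb the share varied more. Of 522 windows with 10 or more induced peaks, 411 had 20 to 50% members, 3 had none and 0 had members only, with a median of 36.4%. The most members in a window, 23 of 36 peaks, lay on chromosome 20 from 62000001 to 63000000. Their folds ran from 2.53 to 5.85, and the 13 other peaks there kept ratios of 0.571 to 0.793 (median 0.730). A window on chromosome 7, 100000001 to 101000000, also held 23, but of 49 peaks. The highest share was 9 of 12 on chromosome 11, 124000001 to 125000000, and the next window along that chromosome had 7 of 10. The opposite case was chromosome 4, 77000001 to 78000000, where 0 of 12 induced peaks were members and the ratios ran from 0.530 to 1.12. The windows were picked for their shares, so these values describe them and show nothing beyond that.

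Taken in order along the chromosomes, members formed 3558 runs of neighbours. A run of 1 was the most frequent and held 2228 members (39.4%), 62 runs had 5 or more members and 26 had 6 or more. The longest, with 9, lay on chromosome 22 from 33206137 to 33434604, and 8 of the 9 stood within 56.6 kb of its start. They were broad and low, with 32 to 60 fragments over widths of 530 to 3419 bp. Of the 5 widest members in the genome, 4 belonged to this run, at widths of 3419, 3063, 2706 and 2559 bp. Most were near the threshold of the list, and 2 were not. The peak at 33225502 to 33228060 had 60 fragments, a fold of 5.52 and a limit of 0.494 (interval 0.317 to 0.759), and the peak at 33236318 to 33237619 had 56 fragments, a fold of 5.91 and a limit of 0.470 (0.295 to 0.739).

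The peaks just before this run kept a clobetasol peak. The nearest, at 33198083 to 33201485, was as broad as the members, 3403 bp, and had 50 induced and 52 clobetasol fragments, a ratio of 0.856. Taller peaks before it had lower ratios: 246 induced and 157 clobetasol fragments gave 0.525, and a peak 64.95 kb before the run gave 0.487 with 277 and 164. After the run, the next induced peak had 258 and 223 fragments, a ratio of 0.711. The ratios of these listed neighbours were under 1, while the members of the run have upper limits only and no measured ratio.

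**Figure D5:**
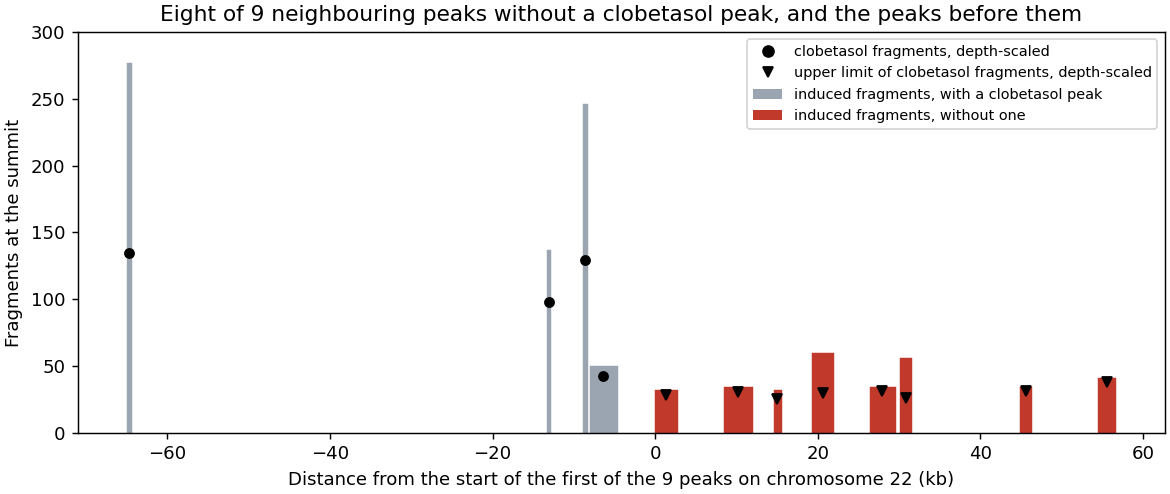
Fragments at the summit (y axis) of induced peaks around the longest run of members, by distance from the start of the run (x axis, kb), with bar widths showing peak widths, members in red and other peaks in grey. Dots give the depth-scaled clobetasol pileup and triangles its upper limit at members; the member 227.9 kb from the start lies beyond the axis, and limits at the members with 60 and 56 fragments are 0.494 and 0.470 of the bar.

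The other runs singled out by length had 8 members each. The run on chromosome 19, 5322289 to 5692686, had folds of 3.20 to 4.05, 30 to 90 fragments, and limits of 0.567 to 0.801. The strongest of these, 5622318 to 5623025, had 90 fragments and a −log10 q of 22.3. The run on chromosome 5, 173215984 to 175789074, was spread over 2573091 bp, with folds of 2.55 to 4.26, 36 to 94 fragments and limits of 0.599 to 0.836.

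Peak numbers in the clobetasol list bear on what "without a peak" means. Numbers followed position in both lists, and in the clobetasol list they ran to 26677 for 12340 rows, so 14337 numbers (53.7%) had no row, for reasons not stated in the sources used here. Some members may therefore have had a clobetasol call that was not listed. Gaps were found in the induced list as well, where numbers ran to 52393 for 16285 rows and 36108 had no row. The lowest −log10 q was 5.00 in both lists. For 5617 members, which lay between neighbouring clobetasol rows of one chromosome, the numbers missing between those rows were counted. For 1169 of them (20.8%) no number was missing, so no numbered call was left out there. If each unlisted call overlapped only 1 member, at most 3845 could have had one, and at least 1772 (31.5%) had none left for them. A call can overlap more than 1 peak, so 1772 is no strict lower bound. The chromosome 22 run shared 4 missing numbers among 9 members, and the chromosome 19 run 4 among 8.

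Members without any missing number around them had values close to those of the rest. Their median fold was 3.30 against 3.34 at the 4448 members with 1 or more, their median −log10 q 8.27 against 8.47, the median pileup 44 fragments in both, and the median limit 0.785 against 0.777. The 1169 included strong sites: the chromosome 17 peak at 27895430, the chromosome 14 peak at 101543752 and the chromosome 6 peak at 37583129 all lay in such intervals, as did chromosome 17, 7832674 to 7833173, with 135 fragments, a fold of 4.27 and a limit of 0.463. Among them, 420 had a −log10 q of 10 or more. Intervals with members were longer than those without, with medians of 166.7 and 49.8 kb, and missing numbers stood at 5.38 and 4.72 per Mb.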

How the data were processed

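EGR1 ChIP-seq peaks from 9 human fibroblast libraries were analysed as deposited. The submitters' processing notes name MACS2 2.1.1.20160309, SAMtools 1.3.1, BWA, FastQC 0.11.5, cutadapt 1.15 and bcl2fastq, and the hg19 build. Settings of the caller: not given in the sources used here. From the peak names in the files, the authors pooled replicates 1, 2 and 3 of a group and used pooled proliferating libraries as control. The authors' fold is a ratio of summit pileup to local control level. Both −log10 columns, of p and of q, are as deposited and refer to the summit. In all 16285 induced rows, the authors' score equalled −log10 q times 10 without decimals. Total read counts per library were not used here, so absolute depth is unknown.

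Pileups were solved from fold, (pileup + 1) / (control + 1), and the Poisson −log10 p, a method tested on data simulated with the same formulas. That test covers the solving only, and not whether the caller used these formulas. The depth ratio of the pools, 1.21, came from the smallest step between control levels (0.670 and 0.552); at 368 peaks with the same summit in both lists, the predicted control level was within 5% in 97.0%. Wilson and exact (Clopper-Pearson) 95% intervals cover counting error only, and fragments from amplified libraries are not all independent molecules. Python 3.11.15, numpy 2.4.6, pandas 2.3.3, scipy 1.17.1 and matplotlib 3.10.9 were used. Coordinates are hg19, counted from 1.

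Sites were named by rule: the 10 members of highest −log10 q, of highest fold, and of highest −log10 q with a control level up to 5 times the lowest; the 5 of lowest −log10 q, the 5 widest, the 5 nearest to a clobetasol peak, and the 3 longest runs. The narrow −log10 q classes, windows, peaks around the longest run and members without missing peak numbers were singled out after their values were seen. Members and rules were chosen with earlier results of these data known. Genes, promoters and motifs at members were not analysed, because an hg19 genome or annotation was not used here.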

Additional observations from a re-analysis of the deposited data

How the results depend on the processing

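The count of 5652 members was 3892 when peaks under a −log10 q of 10 were dropped from both lists, 6818 when a clobetasol peak had to cover 50% of the induced peak, 5322 when a clobetasol peak within 500 bp counted as shared, and 5413 without sites over 5 times the lowest control level. It was 2796 when the induced list was shortened to the length of the clobetasol list, by construction with fewer weak peaks. The share of 35.9% became 43.3% with 50% covered, 33.8% within 500 bp, 23.4% with lists of equal length and 41.7% without the high-control sites, which holds fewer of the other peaks. The median limit of 0.779 was 0.800 at a −log10 q of at least 10 and 0.686 with lists of equal length. It was 0.777 with a depth ratio taken from the lowest control levels, an alternative chosen after seeing the data. With 50% covered the limit does not apply, since a partly covered site has a clobetasol pileup. Of 35 alternative values for the 7 other summaries (medians of fold, pileup, control level, width and distance, and the share of neighbours), 24 lay outside the 95% interval of the value given. No paired analysis was possible because the lists hold pooled calls with no column per replicate, and replicates could not be left out in turn for the same reason. Members have few fragments, so limits near 1 show little.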
